A study of Mus musculus with 24 samples.

Results

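The genes described here encode 10 histone demethylases of the KDM2, KDM3, KDM4 and KDM5 families. They were taken from the deposited gene table by symbol (Kdm2a, Kdm2b, Kdm3a, Kdm3b, Jmjd1c, Kdm4a, Kdm4b, Kdm4c, Kdm5a and Kdm5b), and all 10 were found among its 24043 genes. The table holds 8 RNA-seq libraries of C2C12, an established mouse myoblast line that grows as single cells and fuses into myotubes when serum is withdrawn. Per the labels, cells were kept in growth medium with 10% fetal bovine serum or in differentiation medium with 2% horse serum and an insulin, transferrin and selenium supplement. Each medium was used at 21% oxygen (normoxia) or 2% oxygen (hypoxia), which gave 4 groups of 2 biological replicates, A and B. The labels do not say whether the replicates came from separate cultures. Each p-value sets a change against the spread between replicate libraries, pooled over the 4 groups and drawing on all genes tested. Whether that spread is one between cultures is not known. All groups share 1 line, and no genetic change was made in any of them.

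The 10 proteins carry a Jumonji C (JmjC) catalytic domain. It holds iron and uses molecular oxygen and 2-oxoglutarate to oxidise a methyl group on a histone lysine, which is then released as formaldehyde. KDM2 enzymes act on methylated H3K36, KDM3 enzymes on the lower methylation states of H3K9, KDM4 enzymes on trimethylated H3K9 and H3K36, and KDM5 enzymes on methylated H3K4, a mark of active promoters. Hypoxia-inducible factors (HIF) are known to raise transcription of several of these genes, Kdm3a among them, in many cell types. H3K9 demethylases are also known for acting at muscle genes in myoblasts.

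Every gene was expressed in every library. The lowest value was 5.15 FPKM (Kdm2b, normoxic differentiation medium, replicate A) and the highest 86.5 FPKM (Kdm3a, hypoxic differentiation medium, replicate B), where FPKM counts sequenced fragments after scaling by transcript length and library size. In normoxic growth medium Kdm4a had the highest mean level, 26.9 ± 0.612 FPKM (SD, n = 2), followed by Kdm2a, Kdm3a, Kdm3b and Kdm4b at 21.0 to 15.6 FPKM. The libraries of Kdm3a, Kdm3b and Kdm4b overlapped in that group, so their order is not resolved. The lowest means in that group were those of Kdm5a (8.07 ± 1.95 FPKM) and Kdm4c (6.12 ± 0.762 FPKM). Hypoxia changed the order. Kdm3a, Kdm4b and Kdm2a were the highest, in that order, in both hypoxic groups, and the libraries of Kdm4b and Kdm2a overlapped in differentiation medium. The values refer to whole genes, so the shorter KDM2A and KDM2B isoforms, which are known to lack the JmjC domain, are not separated from the long ones.

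The labels were checked against lists of marker genes. All 12 HIF target genes on the list were higher in hypoxic than in normoxic growth medium, and 11 of 12 were higher in differentiation medium (limma, a linear model fitted to all genes, with a p adjusted over all of them under 0.05). The exception was Vegfa (log2 change 0.19, limma adjusted p 0.301). Of all genes, 13.5% were called higher with hypoxia in growth medium and 37.5% in differentiation medium. All 8 myotube genes were higher in differentiation than in growth medium at 21% oxygen, against 25.5% of all genes. At 2% oxygen 5 were higher and 1 lower, against 23.3% and 17.6% of all genes. Myog (myogenin) reached 3.32 FPKM there against 2609 FPKM in normoxia. The 6 myoblast markers summed to 513 to 1197 FPKM in the normoxic libraries and 124 to 183 FPKM in the hypoxic ones. The adipocyte list summed to 0.111 to 1.18 FPKM, mostly Fabp4, with Plin1 and Cidec at 0 in every library. The epithelial list summed to 0.015 to 0.861 FPKM, highest in normoxic differentiation medium, with Krt18 at 0 throughout. Cd3e was also at 0 in every library, while the sum of the leukocyte list, nearly all of it Cd68, was 25.8 and 42.8 FPKM in hypoxic differentiation medium against at most 3.57 elsewhere. The sum of the fibroblast list was 1.36 to 23.5 FPKM and that of the osteoblast list 2.33 to 260.7 FPKM. Both were highest in normoxic differentiation medium, where Dpt (22.7 and 22.1 FPKM) made up nearly all of the former. Pdgfra fell there from 10.3 and 12.0 FPKM in normoxic growth medium to 0.745 and 0.971 FPKM. Thy1 and Tcf21 were at most 0.0313 FPKM in any library. Bglap2 (osteocalcin) and Bglap led the osteoblast sum, while Sp7 and Ibsp were at most 0.14 FPKM in any library. Dmp1 fell from 2.74 and 2.57 to 0.790 and 1.12 FPKM with the medium in normoxia. The endothelial list summed to at most 0.156 FPKM. In bulk libraries fewer cells of a type and less RNA per cell cannot be told apart. The 16 cell cycle genes summed to 184 FPKM in replicate A and 589 FPKM in replicate B of hypoxic differentiation medium. Their part in the members' values was not tested. Each member's result that rests on this pair is given below with and without its libraries where the call changes. For the genes of the lists no such values are given, so how far their calls rest on this pair is not known.

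**Figure D1:**
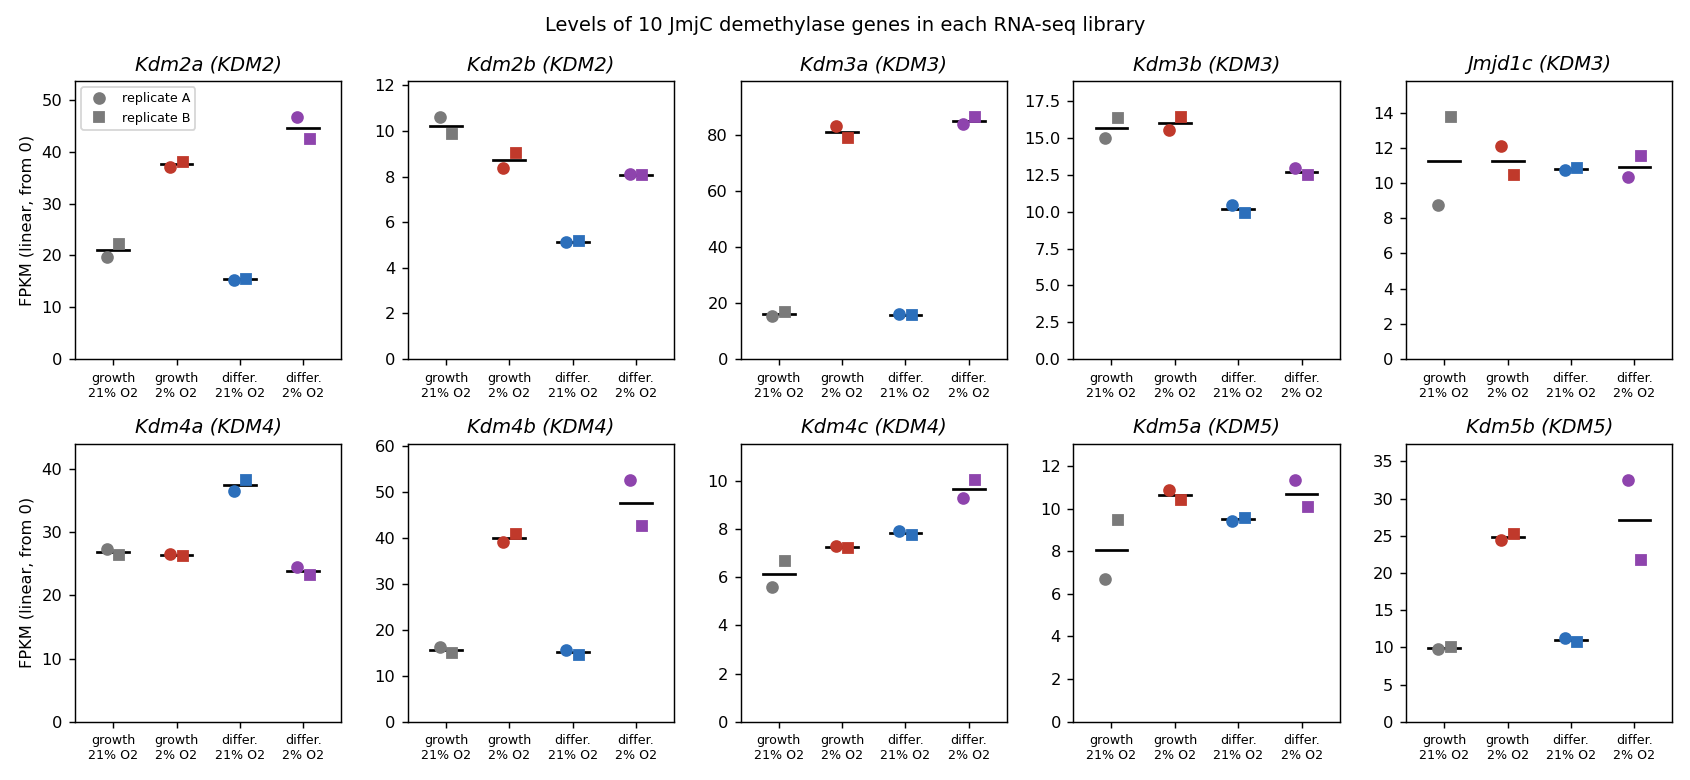
Deposited FPKM of each gene (vertical axis, linear from 0) in the 8 libraries by group (horizontal axis, growth or differentiation medium at 21% or 2% O2). Circles are replicate A, squares replicate B and bars the mean of the 2. Kdm2a, Kdm3a, Kdm4b and Kdm5b stand higher in all 4 hypoxic libraries, while Kdm4a is highest at 36.6 and 38.3 FPKM in normoxic differentiation medium.

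The first comparison asked which of the genes responded to hypoxia in proliferating myoblasts. Kdm3a, Kdm4b, Kdm5b and Kdm2a rose, none fell, and the other 6 did not pass the test. The 4 that rose came from each of the 4 families. Of all 12389 genes tested, 13.5% were called higher, 28.0% lower and 41.4% in either direction. The median change was 0.30 over the 10 members and -0.14 over all genes on the log2(FPKM + 1) scale. Of the genes called, 32.6% were higher as deposited, 45.2% when libraries were rescaled by the median of ratios and 49.7% by the upper quartile.

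Kdm3a, which encodes an H3K9 demethylase long known as a HIF target, gave the largest response of the 10. In growth medium its level was 15.4 FPKM (A) and 16.9 FPKM (B) under normoxia and 83.3 and 79.0 FPKM under hypoxia. The groups lay far apart, with a ratio of means of 5.01. The log2 change was 2.26 ± 0.08 (SE, limma adjusted p 1.42e-05), the 119th highest of the 12389 genes. In differentiation medium the values were 16.2 and 15.6 FPKM at 21% oxygen and 84.0 and 86.5 FPKM at 2% oxygen, which repeated the separation at nearly the same levels. The ratio was 5.36 and the log2 change 2.35 ± 0.08 (adjusted p 1.26e-06).

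In growth medium neither relative of Kdm3a passed the test. Kdm3b, an H3K9 demethylase of the same family, was at 15.0 and 16.4 FPKM in normoxic and 15.6 and 16.4 FPKM in hypoxic growth medium. These groups overlapped (log2 change 0.03, 95% interval -0.18 to 0.23, adjusted p 0.839). Jmjd1c, the third KDM3 gene, whose protein has been reported with weaker or no demethylase activity, was at 8.77 and 13.7 FPKM in normoxic and 12.1 and 10.4 FPKM in hypoxic growth medium. Its replicates in normoxic growth medium differed more than its groups did, and the interval of its change ran from -0.43 to 0.49. Kdm3a made up 37.7% ± 2.34 (SD, n = 2) of the family's summed FPKM in normoxic growth medium and 74.9% ± 0.291 in hypoxic growth medium. The share was 43.1% ± 0.282 and 78.3% ± 0.0293 in differentiation medium at 21% and 2% oxygen, in which the sum of the family was 36.9 ± 0.678 and 108.9 ± 2.28 FPKM.

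Within the KDM4 family the paralogues diverged. Kdm4b, which acts on trimethylated H3K9 and H3K36 and is also a known HIF target, was at 16.2 and 14.9 FPKM in normoxic and 39.2 and 40.8 FPKM in hypoxic growth medium. The groups did not overlap, and the log2 change was 1.31 ± 0.11 (adjusted p 0.000311), a ratio of 2.57. In differentiation medium it was at 15.6 and 14.6 FPKM in normoxia and 52.6 and 42.6 FPKM in hypoxia, a ratio of 3.15 (log2 change 1.59 ± 0.11, adjusted p 3.54e-05). Kdm4a did not follow. It was at 27.3 and 26.5 FPKM in normoxic and 26.5 and 26.3 FPKM in hypoxic growth medium, with overlapping groups and an interval of the log2 change from -0.19 to 0.15. Kdm4c did not pass in either medium (0.22 ± 0.11, adjusted p 0.146 in growth medium and 0.27 ± 0.11, adjusted p 0.0636 in differentiation medium). Its change in growth medium passed when rescaled by the median of ratios (adjusted p 0.0426) or the upper quartile (0.0362), and its adjusted p ran from 0.0362 to 0.482 over the alternatives. Its change in differentiation medium passed without either library of normoxic growth medium (adjusted p 0.0402 without A, 0.0413 without B) or without hypoxic differentiation replicate A (0.0484). Kdm4a and Kdm4b exchanged rank as the largest part of the family. Kdm4a made up 55.4% ± 0.395 of the summed FPKM in normoxic and 35.9% ± 0.659 in hypoxic growth medium, and Kdm4b 32.0% ± 1.37 and 54.2% ± 0.873.

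In the KDM5 family Kdm5b, which removes H3K4 methylation and has been reported as a HIF target, was at 9.81 and 10.1 FPKM in normoxic and 24.4 and 25.3 FPKM in hypoxic growth medium. All hypoxic values were more than 2-fold those in normoxia (log2 change 1.24 ± 0.17, adjusted p 0.00184). In differentiation medium it was at 11.3 and 10.8 FPKM in normoxia and 32.5 and 21.8 FPKM in hypoxia (1.20 ± 0.17, adjusted p 0.00085), with its widest replicate gap in the hypoxic pair. Leaving out B of that pair gave a change of 1.48, and leaving out A gave 0.92. Kdm5a, the paralogue reported to lose activity at low oxygen, was at 6.69 and 9.44 FPKM in normoxic and 10.9 and 10.4 FPKM in hypoxic growth medium. All 4 hypoxic libraries lay above all 4 normoxic ones, but neither medium's change passed (0.38 ± 0.15, adjusted p 0.0909, and 0.15 ± 0.15, adjusted p 0.399). The growth medium change passed without replicate B of normoxic growth medium (0.60, adjusted p 0.0149), by upper-quartile rescaling (adjusted p 0.0490) and with array quality weights (adjusted p 0.0390). In the first case the lone remaining library was assumed to vary like the other groups.

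In the KDM2 family Kdm2a, an H3K36 demethylase that binds unmethylated CpG islands, was at 19.8 and 22.3 FPKM in normoxic and 37.1 and 38.1 FPKM in hypoxic growth medium. The groups were separate, with a log2 change of 0.81 ± 0.09 (adjusted p 0.000738) and a ratio of 1.79. The difference was larger in differentiation medium, with 15.2 and 15.5 FPKM in normoxia and 46.7 and 42.4 FPKM in hypoxia (1.47 ± 0.09, adjusted p 1.63e-05, ratio 2.90). Kdm2b, which recruits a variant Polycomb complex to CpG islands, was at 10.6 and 9.85 FPKM in normoxic and 8.39 and 9.05 FPKM in hypoxic growth medium. Its hypoxic libraries were the lower ones, but the change of -0.21 ± 0.09 did not pass (adjusted p 0.112).

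Over the 8 libraries, Kdm2a, Kdm3a, Kdm4b, Kdm5a and Kdm5b had all 4 hypoxic values above all 4 normoxic values, which held for 11.3% of all genes tested. None of the 10 had all 4 below, against 12.2% of all genes. The summed FPKM of the 10 genes was 140.9 ± 8.12 in normoxic and 263.9 ± 1.24 in hypoxic growth medium, and 138.4 ± 0.408 and 280.5 ± 16.6 in differentiation medium. The ratio of these sums was 1.87 in growth medium and 2.03 in differentiation medium on the deposited scale, and between 1.77 and 2.11 under the other scalings. Kdm3a had the largest difference in FPKM of the 10 in both media.

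**Figure D2:**
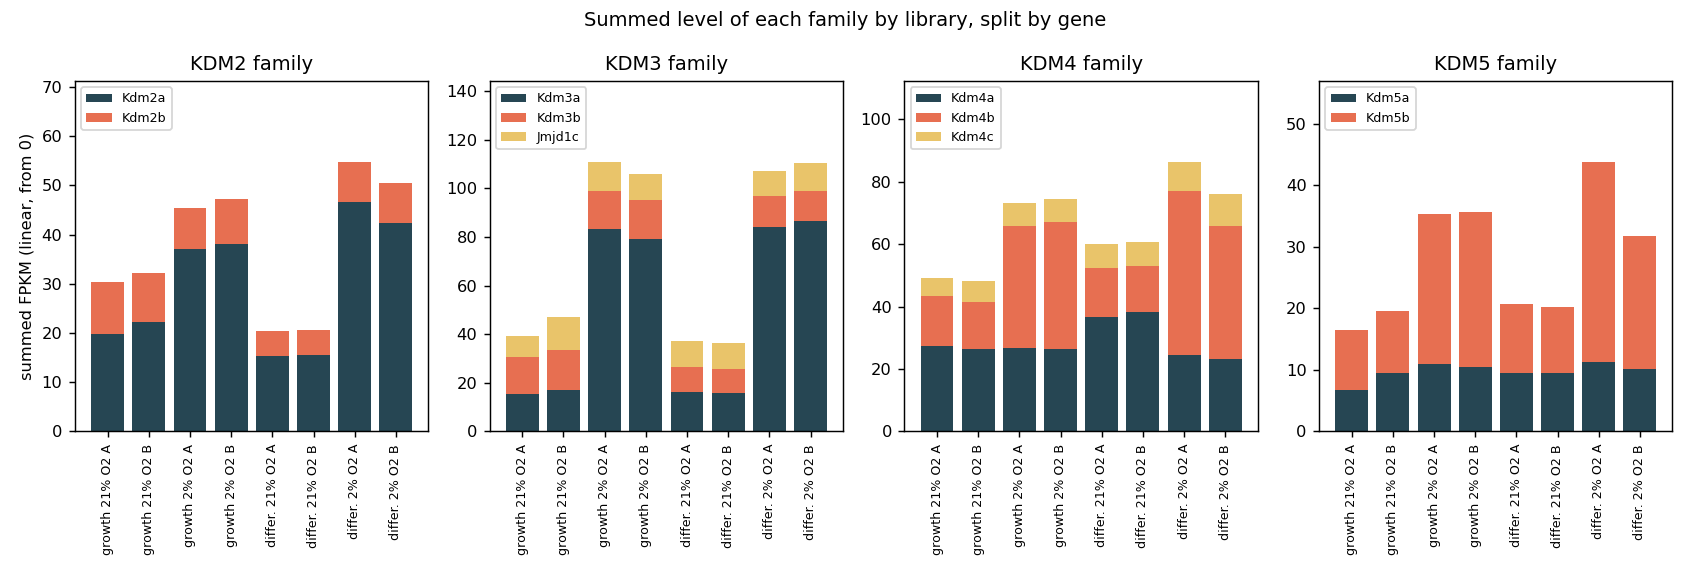
Summed FPKM of each family (vertical axis, linear from 0, stacked by gene) in each of the 8 libraries (horizontal axis). In KDM3 the added height at 2% O2 lies in Kdm3a, which reaches 74.9% and 78.3% of the family in growth and differentiation medium. In KDM4 it lies in Kdm4b, and in KDM5, summed here over Kdm5a and Kdm5b only, in Kdm5b. Kdm5c is outside that sum. Its mean was 17.4 FPKM in normoxic and 21.3 FPKM in hypoxic growth medium, and 14.6 and 28.2 FPKM in differentiation medium.

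Hypoxia was then compared with normoxia in differentiation medium, where the groups also differ in myotube gene expression. In this medium 6 of the 10 genes were higher and 1 lower, where 37.5% of all genes were called higher and 27.7% lower, 65.2% in all. The share of either direction was thus close to that of all genes. When the log2 change also had to reach 1, 4 members were higher against 14.8% of all genes, and in growth medium 3 were higher against 4.31%. Under that demand no member was called in either direction for the medium at 21% oxygen, the medium at 2% oxygen or the interaction described further on. Among all genes tested, 3542, 925 and 3410 were called in either direction in these comparisons. The shares called higher were 11.5%, 3.64% and 16.8% of all genes. Of the genes called for hypoxia in this medium without that demand, 57.5% were higher as deposited and 47.2% when rescaled by the median of ratios. Beside Kdm3a, Kdm4b, Kdm2a and Kdm5b, the 2 further genes called higher were Kdm2b and Kdm3b. Kdm2b was at 5.15 and 5.16 FPKM in normoxia and 8.10 and 8.09 FPKM in hypoxia (0.56 ± 0.09, adjusted p 0.00159). Kdm3b was at 10.5 and 9.94 FPKM in normoxia and 12.9 and 12.5 FPKM in hypoxia (0.29 ± 0.09, adjusted p 0.0215). The Kdm3b call was lost when rescaled by the median of ratios (adjusted p 0.365, the highest over its alternatives) or the upper quartile (0.0640). It was also lost with only the compared libraries fitted (0.0541), with array quality weights (0.0728) and without normoxic differentiation replicate A (0.0651) or B (0.117). Kdm4a was the gene that went the other way, at 36.6 and 38.3 FPKM in normoxia and 24.5 and 23.3 FPKM in hypoxia. Its groups did not overlap, and its level in hypoxia was lower by -0.63 ± 0.07 (adjusted p 0.000302). Jmjd1c had overlapping groups (0.01, 95% interval -0.45 to 0.48).

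**Figure D3:**
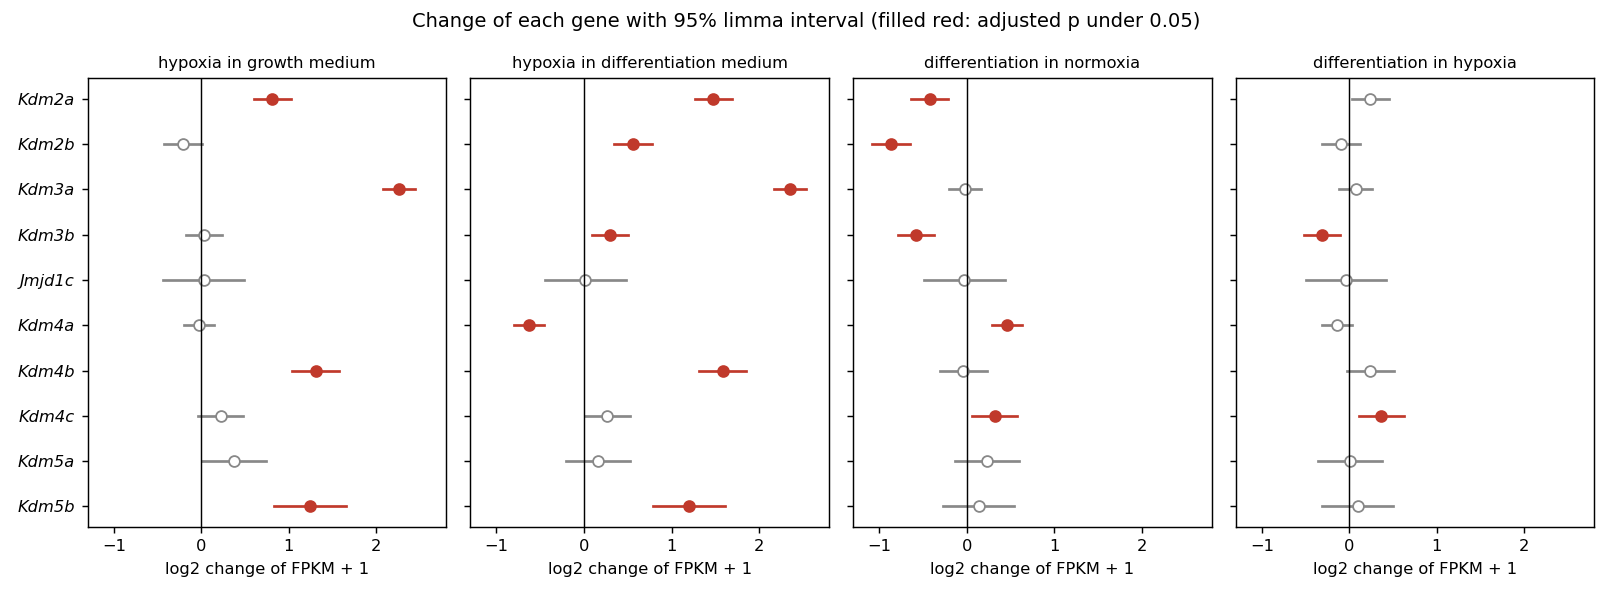
Log2 change of FPKM + 1 (horizontal axis) of each gene (vertical axis) with its 95% limma interval in 4 comparisons. Filled red points have an adjusted p under 0.05. Kdm3a stands apart at 2.26 and 2.35 in the 2 hypoxia comparisons, and no change with medium reaches 1 in size.

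Promoter sequences from RefSeq (GRCm38.p6) were searched for the core of the HIF binding element, since 4 of the 10 genes rose together. Windows were the 250 bases before each annotated start, and the letters searched were ACGTG and GCGTG on both strands. A CACGTG holds 2 overlapping matches, 1 on each strand. Windows were searched for 6 of the members (Kdm2b, Kdm3a, Jmjd1c, Kdm4a, Kdm4c and Kdm5b), 13 windows in all. None were searched for Kdm2a and Kdm4b, which rose in both media, or for Kdm3b and Kdm5a. A match was present in at least 1 window of 5 of the 6 genes, against 41.5% of 27025 genes. By window, 8 of the 13 held a match, against 38.6% of 32851 windows. The 6 genes have up to 4 windows each, and all but 3 of these 13 windows hold more than 50% G and C. The windows below are those of the most responsive gene (Kdm3a, first annotated start, minus strand, chr6:71632918-71633167), another gene that rose (Kdm5b, plus strand, chr1:134559928-134560177), the gene whose window holds the most matches (Kdm4c, second annotated start, plus strand, chr4:74251629-74251878) and the gene that was lower in hypoxic differentiation medium (Kdm4a, minus strand, chr4:118180044-118180293). They were chosen after the matches were seen, are written 5′ to 3′ along the gene, and show matches in capitals.
Kdm3a: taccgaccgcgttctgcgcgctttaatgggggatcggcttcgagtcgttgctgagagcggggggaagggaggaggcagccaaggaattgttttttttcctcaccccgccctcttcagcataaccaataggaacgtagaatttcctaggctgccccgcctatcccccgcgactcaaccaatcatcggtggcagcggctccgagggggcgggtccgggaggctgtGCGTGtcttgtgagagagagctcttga
Kdm5b: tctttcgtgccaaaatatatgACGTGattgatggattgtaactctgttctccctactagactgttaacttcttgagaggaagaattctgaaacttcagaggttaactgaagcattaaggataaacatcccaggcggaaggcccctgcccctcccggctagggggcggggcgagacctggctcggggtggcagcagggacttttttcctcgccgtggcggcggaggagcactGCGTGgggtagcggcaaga
Kdm4c: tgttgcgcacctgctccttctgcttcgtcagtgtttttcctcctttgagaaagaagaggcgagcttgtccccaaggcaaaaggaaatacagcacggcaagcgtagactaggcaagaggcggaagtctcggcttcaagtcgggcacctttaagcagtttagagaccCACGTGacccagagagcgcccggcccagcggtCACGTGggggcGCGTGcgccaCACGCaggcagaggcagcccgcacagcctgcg
Kdm4a: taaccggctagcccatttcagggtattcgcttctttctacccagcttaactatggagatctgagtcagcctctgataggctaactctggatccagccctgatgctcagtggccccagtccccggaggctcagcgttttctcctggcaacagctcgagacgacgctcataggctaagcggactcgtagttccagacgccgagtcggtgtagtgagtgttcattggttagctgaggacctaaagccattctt
The Kdm3a window holds 1 match, a GCGTG that begins 27 bases before the start, and the other 2 annotated starts of the gene hold none. Kdm5b holds 2, at 229 and 19 bases before the start. Kdm4c, whose hypoxia changes did not pass the threshold, holds 6 matches, 4 of them in a pair of CACGTG. Jmjd1c, which had overlapping groups in both media, holds 2 in the window of its first start, and Kdm4a holds none. Kdm2b, which did not pass in growth medium and was higher with hypoxia in differentiation medium, holds 1 or 2 matches in each of its 4 windows, some of which overlap. A match is a description of letters and not of binding.

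The medium comparison at 21% oxygen shares its normoxic differentiation libraries with the hypoxia comparison in differentiation medium. Kdm2a, Kdm2b, Kdm3b and Kdm4a were called in both. Kdm4c was called only for the medium, and Kdm3a, Kdm4b and Kdm5b only for hypoxia. Of all genes, 66.5% were called for the medium and 65.2% for hypoxia. The share called in both was not worked out, so the overlap is not read as a trait of the members. At 21% oxygen, where the cells took on myotube gene expression, Kdm2b, Kdm3b and Kdm2a fell and Kdm4a and Kdm4c rose on the deposited scale. Rescaled by the median of ratios, 4 members were higher and 2 lower: the Kdm2a call was lost, and Kdm3a (0.24, adjusted p 0.0426) and Kdm5a (0.48, adjusted p 0.0415) were called higher. Kdm5a, at 0.23 ± 0.15 as deposited (adjusted p 0.226), also passed without normoxic growth replicate B (0.45, adjusted p 0.0205). These 5 of 10 calls stand against 66.5% of all genes, of which 25.5% were higher and 41.0% lower. The median change was -0.02 over the members and -0.20 over all genes. The higher share of the calls was 38.4% as deposited, 53.2% by the median of ratios and 43.2% by the upper quartile. Kdm2b fell from 10.6 and 9.85 to 5.15 and 5.16 FPKM, its lowest values of the series (-0.87 ± 0.09, adjusted p 0.000206). Kdm3b fell from 15.0 and 16.4 to 10.5 and 9.94 FPKM (-0.58 ± 0.09, adjusted p 0.00106). Kdm2a fell from 19.8 and 22.3 to 15.2 and 15.5 FPKM (-0.42 ± 0.09, adjusted p 0.00504). Rescaling by the median of ratios ended the Kdm2a call (-0.16, adjusted p 0.253, the highest over its alternatives).

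Kdm4a rose from 27.3 and 26.5 to 36.6 and 38.3 FPKM with the medium in normoxia, and its groups were separate (0.46 ± 0.07, adjusted p 0.00123). KDM4A is known in muscle, where a short isoform without most of the catalytic part has been described in differentiating myoblasts, and gene-level values do not separate it. Kdm4c rose from 5.58 and 6.66 to 7.94 and 7.77 FPKM (0.32 ± 0.11, adjusted p 0.0351). This call was lost with the replicate block (adjusted p 0.0508) and when only the compared libraries were fitted (0.0505). It was also lost without normoxic growth replicate A, hypoxic growth A or B, or normoxic differentiation A or B (adjusted p up to 0.146). Kdm3a and Kdm4b, the genes most responsive to oxygen, were within 0.04 of no change with medium in normoxia on the log2 scale, with intervals of -0.21 to 0.16 and -0.31 to 0.23. Their sign turned under both rescalings, and by the median of ratios the Kdm3a change passed the threshold.

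At 2% oxygen the change of medium moved few of the genes. Kdm4c rose from 7.31 and 7.22 to 9.28 and 10.0 FPKM (0.37 ± 0.11, adjusted p 0.0341) and Kdm3b fell from 15.6 and 16.4 to 12.9 and 12.5 FPKM (-0.31 ± 0.09, adjusted p 0.0288). These 2 of 10 calls stand against 40.9% of all genes, 23.3% higher and 17.6% lower. Rescaling ended the Kdm4c call (adjusted p 0.0509 by the median of ratios, 0.116 by the upper quartile). Both calls were lost with the replicate block (adjusted p 0.0523 for Kdm4c and 0.0554 for Kdm3b), with only the compared libraries fitted, with array quality weights and without any of 5 libraries (hypoxic growth A or B, normoxic differentiation A or B, hypoxic differentiation B), with adjusted p up to 0.147 for Kdm4c and 0.160 for Kdm3b over their alternatives. Without hypoxic differentiation replicate B, Kdm2a (0.30, adjusted p 0.0399), Kdm4b (0.39, adjusted p 0.0163) and Kdm5b (0.37, adjusted p 0.0132) were called higher instead. That library had the higher cell cycle signal of its pair.

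**Figure D4:**
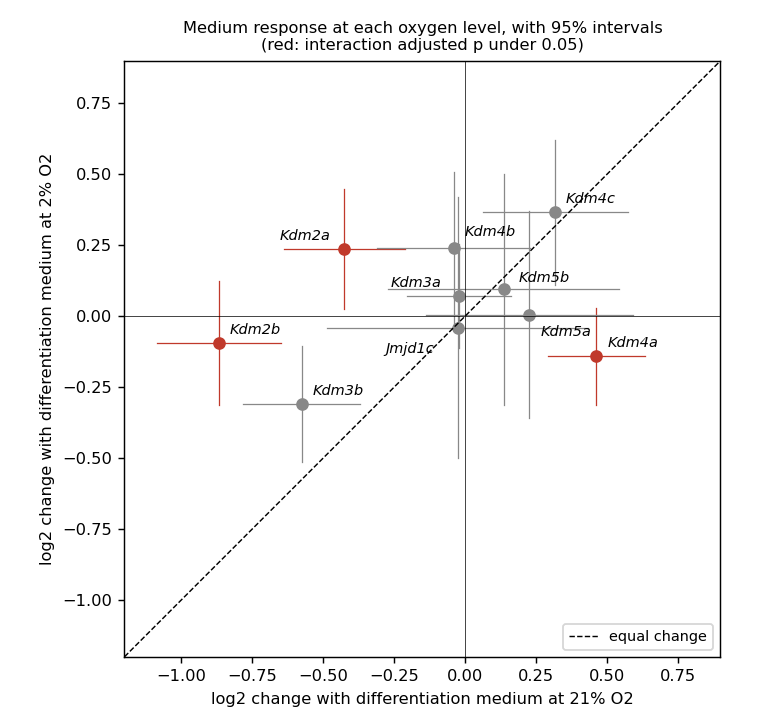
Log2 change of FPKM + 1 with differentiation medium at 21% O2 (horizontal axis) and at 2% O2 (vertical axis) for each gene, with 95% limma intervals. The dashed line marks equal change, and red genes have an interaction with an adjusted p under 0.05. Kdm2a and Kdm2b lie above the line (interaction 0.66 and 0.77) and Kdm4a below it (-0.60).

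The interaction, the medium response in hypoxia minus that in normoxia, tested whether oxygen altered the medium response. It passed for Kdm2b (0.77 ± 0.13, adjusted p 0.00276), Kdm2a (0.66 ± 0.13, adjusted p 0.00462) and Kdm4a (-0.60 ± 0.10, adjusted p 0.00276). These 3 of 10 stand against 54.1% of all genes, 35.4% positive and 18.7% negative, and the median interaction was 0.07 over the members and 0.27 over all genes. Positive ones were 65.5% of the calls as deposited, 47.3% by the median of ratios and 54.2% by the upper quartile. Kdm2b fell with the medium in normoxia and changed by -0.10 ± 0.09 in hypoxia (adjusted p 0.446), and Kdm4a rose in normoxia and changed by -0.14 ± 0.07 in hypoxia (adjusted p 0.161). The Kdm2a interaction was 0.35 by the median of ratios (adjusted p 0.121, the highest over its alternatives) and 0.45 by the upper quartile (adjusted p 0.0576), so both rescalings ended the call. Kdm3a had an interaction of 0.09 with a 95% interval of -0.17 to 0.35, and its sign turned under both other scalings. The interaction of Kdm5b was -0.04 with both replicates of hypoxic differentiation medium, -0.32 without replicate A (adjusted p 0.0365) and 0.24 without replicate B (adjusted p 0.0946). That of Kdm4b was 0.28 ± 0.16 (adjusted p 0.181) and passed without replicate B of that group (0.43, adjusted p 0.0199).

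Among the other JmjC genes on the list, 18 of 21 were tested (Kdm4d, Kdm5d and Uty were under 1 FPKM in every group). In growth medium 3 were higher and 2 lower with hypoxia, against 13.5% and 28.0% of all genes, with a median of 0.02. In differentiation medium 5 were higher and 6 lower, against 37.5% and 27.7%, with a median of -0.10. Jmjd6, a JmjC lysyl hydroxylase, had the largest change of the list and went from 22.9 to 96.4 FPKM in growth medium (2.03 ± 0.07, adjusted p 1.64e-05). Hr (hairless), a nuclear receptor corepressor related to KDM3, went from 3.70 to 12.3 FPKM (adjusted p 0.000459). The H3K27 demethylase gene Kdm6b went from 20.5 to 37.2 FPKM in growth medium (0.83 ± 0.10) and was at 28.6 and 29.6 FPKM in normoxic and hypoxic differentiation medium (0.04 ± 0.10, adjusted p 0.746), with an interaction of -0.79 (adjusted p 0.00363). The 2 genes lower in hypoxic growth medium, named after their values were seen, were Jmjd8 (9.95 to 5.38 FPKM) and Jmjd7 (6.63 to 4.38 FPKM). Kdm5c, the KDM5 relative on the X chromosome, went from 21.3 FPKM in hypoxic growth to 28.2 FPKM in hypoxic differentiation medium (0.38 ± 0.10, adjusted p 0.0219). Against 14.6 FPKM in normoxic differentiation medium, that hypoxic level was higher by 0.90 ± 0.10 (adjusted p 0.000247). The hypoxia change of Kdm5c in growth medium did not pass (0.28 ± 0.10, adjusted p 0.0607), and its interaction was 0.62 (adjusted p 0.0092). Hif1an, the asparaginyl hydroxylase that inhibits HIF, was higher in normoxic differentiation medium (22.2 FPKM) than in hypoxic (9.59 FPKM). The FAD-dependent demethylase Kdm1a, which has no iron centre, was lower with hypoxia in growth medium (43.4 to 26.8 FPKM, -0.67 ± 0.09, adjusted p 0.00142) and in differentiation medium (-0.56 ± 0.09).

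Methyltransferases that write the marks removed by these enzymes were compared with hypoxia in growth medium, where 13.5% of all genes were called higher and 28.0% lower. Of 8 H3K4 methyltransferase genes 1 was higher (Kmt2e) and 1 lower (Setd7, 23.8 to 10.9 FPKM). Of 6 H3K9 methyltransferase genes 1 was lower (Ehmt2, 63.6 to 47.4 FPKM), and of 6 H3K36 methyltransferase genes 1 was lower (Nsd1, 12.1 to 6.67 FPKM). Medians of the 3 lists were 0.15, -0.22 and -0.09. With differentiation in normoxia 4 of the 6 H3K9 genes fell, against 41.0% of all genes, led by Ehmt2 (63.6 to 26.9 FPKM, -1.21 ± 0.09). In differentiation medium 4 of these 6 were higher in hypoxia, against 37.5% of all genes. Partner genes of KDM2B in its variant Polycomb complex numbered 8. Pcgf1, which bridges the complex to KDM2B, fell with differentiation in normoxia (20.0 to 9.50 FPKM) and in hypoxia (17.0 to 9.27 FPKM). With differentiation in normoxia 1 of the 8 was higher (Bcor) and 2 lower, against 25.5% and 41.0% of all genes. In hypoxia 1 was higher (Skp1a) and 3 lower, against 23.3% and 17.6%. With hypoxia 1 of the 8 was higher and 1 lower in each medium. Of all genes, 13.5% were higher and 28.0% lower in growth medium, and 37.5% and 27.7% in differentiation medium. Enzymes that make or use 2-oxoglutarate, the co-substrate of the demethylases, were lower in hypoxic growth medium for 7 of 9 genes and higher for 1, against 28.0% and 13.5% of all genes, with a median of -0.85 beside -0.14 over all genes. Idh2 went from 154.6 to 36.6 FPKM there (-2.05 ± 0.09). Idh1 was at 99.1 and 31.1 FPKM in normoxic and hypoxic growth medium and 10.4 and 88.6 FPKM in differentiation medium.

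Genes with a pattern most like those of the 3 most variable members were found by Pearson's r of log2(FPKM + 1) over the 8 libraries, which share their 4 groups. For Kdm3a they were Pygl (liver glycogen phosphorylase, r = 0.998), Pdk1 (pyruvate dehydrogenase kinase, r = 0.996) and Itpk1 (an inositol phosphate kinase, r = 0.996). For Kdm4b they were Plod1 (a lysyl hydroxylase of collagen, r = 1.00), Slc16a3 (a lactate exporter, r = 0.996) and F730043M19Rik (r = 0.996). For Kdm2a they were A930004D18Rik, Aldoc (an aldolase) and Fam117b (r = 0.996 for each). With groups this distinct a high r is common, and 196 to 235 genes reached 0.95 for each of the 3 members.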

How the data were processed

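The authors deposited FPKM per gene for 8 RNA-seq libraries. The submitters' processing notes name STAR 2.5.1b, Cufflinks 2.2.1 and the build mm9, without roles; annotation, strand use and scaling between libraries are not given in the sources used here, and libraries were total RNA with strand kept, per the labels' protocols. The chromatin libraries were not analysed here. Relative depth, from shared steps of values under 0.5 FPKM, ran from 0.633 (hypoxic differentiation replicate B) to 1 (its replicate A); absolute depth was not used. limma 3.58.1 (R 4.3.3) was fitted to log2(FPKM + 1) for the 12389 genes with a mean of at least 1 FPKM in a group, with 4 group means over 8 libraries and an intensity trend. Tests were two-sided, with Benjamini-Hochberg adjustment over the 12389 genes of a contrast. All 10 members passed the filter. Fold changes on this scale understate those of low genes. The fit was also run on simulated data with independent noise and few changed genes. That run does not speak for the calls in these libraries. The members and lists were chosen with earlier results of these data known. All members are named. List genes were named among the 3 largest changes of a contrast (Myog, Jmjd8, Kdm4d, Kdm5d, Uty and the marker genes apart). Similar genes were named by r for the 3 members with the largest F. RefSeq gene spans (GRCm38.p6) of Kdm2a, Jmjd1c, Kdm5a and Kdm5b overlap a protein-coding neighbour, and reads there may be shared if strand was not used.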

Additional observations from a re-analysis of the deposited data

Results flagged for a closer look

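The interaction passed the test (limma, adjusted p under 0.05) for 3 of the 10 genes, against 54.1% of all genes. It was 0.66 for Kdm2a, 0.77 for Kdm2b and -0.60 for Kdm4a on the log2(FPKM + 1) scale. The Kdm2a value fell short of the threshold when libraries were rescaled by the median of ratios (0.35, adjusted p 0.121) or by the upper quartile (0.45, adjusted p 0.0576).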

How the results depend on the processing

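The hypoxia calls of Kdm3a, Kdm4b and Kdm5b in both media, and of Kdm2a in differentiation medium, kept their direction and passed under all 19 alternatives tried. When the log2 change also had to reach 1, the members called were 0 for the medium at 21% oxygen, 0 for the medium at 2% oxygen, 4 for hypoxia in differentiation medium, and 0 had a called interaction. For the medium at 2% oxygen the number of members called was 1 by the median of ratios, 1 by the upper quartile, 0 with the replicate block, 0 with only the compared libraries fitted and 0 with array quality weights. With each library left out in turn, the members called numbered 4 to 6 for the medium at 21% oxygen, 0 to 3 for the medium at 2% oxygen, 4 to 5 for hypoxia in growth medium, 6 to 8 for hypoxia in differentiation medium and 3 to 4 interactions. The same fits called, of all 12389 genes, 6332 to 9277 for the medium at 21% oxygen, 2503 to 6479 for the medium at 2% oxygen, 2989 to 6831 for hypoxia in growth medium, 6352 to 8671 for hypoxia in the other medium and 5129 to 8016 for the interaction. Over all genes, the demand for a log2 change of 1 left 3542 calls for the medium at 21% oxygen, 925 calls for the medium at 2% oxygen, 1268 calls for hypoxia in growth medium, 3420 calls for hypoxia in differentiation medium and 3410 calls for the interaction. Genes called for the medium at 2% oxygen numbered 5073 in all, 2867 with only the compared libraries fitted, 2673 without hypoxic growth replicate A and 2503 without B. Those for hypoxia in growth medium numbered 5135, and 2989 and 3077 without these. Rescaling by the median of ratios turned the sign of changes that had not passed (of these, Kdm3a at 21% oxygen then passed), in the medium at 21% oxygen for Kdm3a (0.24), Jmjd1c (0.23) and Kdm4b (0.22), in the medium at 2% oxygen for Kdm5a (-0.045), in hypoxia in growth medium for Kdm4a (0.11), in hypoxia in differentiation medium for Jmjd1c (-0.17) and Kdm5a (-0.024), in the interaction for Kdm3a (-0.22), Kdm3b (-0.041), Kdm4b (-0.036) and Kdm4c (-0.24). Rescaling by the upper quartile turned the sign of changes that had not passed, in the medium at 21% oxygen for Kdm3a (0.064), Jmjd1c (0.057) and Kdm4b (0.047), in the medium at 2% oxygen for Kdm3a (-0.055), Kdm5a (-0.11) and Kdm5b (-0.027), in hypoxia in growth medium for Kdm4a (0.15), in hypoxia in differentiation medium for Jmjd1c (-0.024), in the interaction for Kdm3a (-0.12) and Kdm4c (-0.14). Signs that turned with a library left out ranged, for the medium at 21% oxygen, from -0.085 to 0.042 for Kdm3a, -0.32 to 0.27 for Jmjd1c and -0.095 to 0.017 for Kdm4b. For the medium at 2% oxygen they ranged from -0.14 to 0.058 for Jmjd1c, -0.073 to 0.085 for Kdm5a and -0.18 to 0.37 for Kdm5b. For hypoxia in growth medium they ranged from -0.032 to 0.083 for Kdm3b and -0.27 to 0.33 for Jmjd1c. For hypoxia in differentiation medium they ranged from -0.057 to 0.087 for Jmjd1c. For the interaction they ranged from -0.31 to 0.28 for Jmjd1c, -0.061 to 0.16 for Kdm4c and -0.32 to 0.24 for Kdm5b. The cause of these changes was not tested. The replicate letters did not pair the libraries by the correlation of A minus B between groups (-0.17 to 0.04 over 6 pairs of groups), and the replicate block ended the calls of Kdm4c for the medium at both oxygen levels and of Kdm3b for the medium at 2% oxygen. The fit of only the compared libraries was not run for the interaction, which uses all 8. With 2 libraries a group, the spread within a group rests on 1 difference, and gene-level FPKM do not separate isoforms.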
